A study of Gallus gallus with 32 samples.

Results

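The insulin-like growth factor (IGF) system genes were described in the hypothalamus and the pituitary of young broiler cockerels. Members were chosen by name: 10 genes of the ligands, the type I receptor, the binding proteins and a protease that cuts binding proteins. A symbol was given by the deposited tables for 7 of these 10, among 24881 genes counted and 10132 genes with a symbol, and these 7 were IGF2, IGF1R, IGFBP1, IGFBP2, IGFBP3, IGFBP4 and IGFBP5. IGF1, IGFBP7 and PAPPA2 were not analysed here. All 7 passed the low-count filter in every comparison.

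RNA from both tissues of male Ross 308 chickens, a commercial hybrid kept for meat, was sequenced as 32 libraries. A number shared in the sample descriptions pairs the libraries, and it is taken here to mean that both tissues came from the same 16 birds. The 4 groups of 4 birds were high growth rate (HGR) and low growth rate (LGR) cockerels at 3 weeks (day 22) and at 6 weeks (day 42 by the labels). The methods read here give a later day for the older birds, and the sample titles carry smaller numbers at both ages. The days of the labels are used here, and the conflict is not resolved. Both growth groups received the same diets, and the labels name no treatment and no engineered allele. The diet changed with age, from starter through grower to finisher, so diet and age cannot be told apart. Feed was withdrawn for some hours before slaughter in all birds. Growth group was set by body mass in the second week, and lighter and heavier birds were then housed apart, so pen and growth group cannot be told apart. The names of the 3-week and 6-week libraries also carry different prefixes of unstated meaning, which cannot be told apart from age. The methods read here describe the hypothalamus, taken whole, and do not describe the pituitary libraries. The study set aside hypothalamus libraries of both ages that stood apart in clustering. All 16 were kept here, so the comparisons include them, and no fit left out several libraries at once.

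IGFs are small peptide hormones that resemble insulin and drive growth, cell survival and differentiation. They act on a tyrosine kinase receptor at the cell surface, while a family of secreted binding proteins carries them, prolongs their life and either withholds them from the receptor or hands them over. Growth hormone from the pituitary stimulates IGF production in the liver and elsewhere, and IGFs in turn restrain growth hormone release at the pituitary and the hypothalamus. In brain tissue, IGF peptides and binding proteins are also made locally, in mammals by meninges, vessels, choroid plexus and glia among other sources.

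Total counts were 13845756 to 17536175 per hypothalamus library and 14351918 to 18256297 in 15 pituitary libraries. The remaining pituitary library, LGR replicate 4 at 3 weeks, held 6231478 counts and had a TMM scaling factor of 0.685, so several of the values that include it are also given without it. Tissue labels were checked with marker lists: 6 of 6 measured pituitary hormone cell genes were called higher in the pituitary, and 5 of 5 neuron, 5 of 5 astrocyte and 7 of 7 hypothalamic nucleus genes were called lower there. The summed pituitary hormone cell markers were 107814 to 229776 counts-per-million (CPM) in pituitary and 398 to 2949 CPM in hypothalamus libraries. In these bulk samples fewer cells of a type and less RNA per cell cannot be told apart.

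The genes lie on 5 chromosomes in the coordinates of the deposited tables, which name no genome build. IGF2 (ENSGALG00000035282) is at chr5:13774857-13783200, IGF1R (ENSGALG00000040651) at chr10:16697772-16838212 and IGFBP4 (ENSGALG00000040672) at chr27:4865485-4870779. The other 4 binding protein genes form a pair of clusters. IGFBP1 (ENSGALG00000043493), at chr2:55087644-55093886, ends 9681 bp before IGFBP3 (ENSGALG00000037940), at chr2:55103568-55119141. IGFBP5 (ENSGALG00000011468), at chr7:23359550-23376226, ends 6553 bp before IGFBP2 (ENSGALG00000011469), at chr7:23382780-23435025. In the RefSeq annotation of the assembly GRCg7b, 0 other protein-coding genes stand between the members of either pair. Levels below are TMM-scaled CPM, and they are compared between samples for each gene and not between genes, since no transcript lengths were used.

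The first comparison asked which members differed between the pituitary and the hypothalamus. IGFBP2 and IGFBP1 were lower in the pituitary and IGFBP3 was higher, while the ligand, the receptor and the remaining binding proteins were not called. A call needed an adjusted p (Benjamini-Hochberg, over all genes tested, quasi-likelihood test of edgeR) of at most 0.05 together with a fold change of at least 1.5. By this rule 3 of 7 members were called, beside 53.5% of the 16169 genes tested. Of all genes tested, 25.7% were called higher and 27.8% lower in the pituitary, and the median log2 fold change was 0.05 over all genes and -0.14 over the 7 members.

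IGFBP2, a binding protein that is abundant in the developing brain and cerebrospinal fluid of mammals, had the largest tissue difference of the 7. Its level was 128 CPM at the lowest, 153 at the median and 189 at the highest in the 16 hypothalamus libraries. In the 16 pituitary libraries it was 18.7 CPM at the lowest, 30.7 at the median and 76.0 at the highest. The tissues did not overlap, and the IGFBP2 level was lower in the pituitary in 16 of 16 birds. The log2 fold change of IGFBP2 was -2.06 (SE 0.163, edgeR adjusted p = 2.38e-12), which is 4.18-fold lower in the pituitary.

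IGFBP1, known in mammals as a binding protein of liver and decidua that insulin represses, was read from few counts, with 7 to 42 per pituitary library. Its hypothalamus level ran from 1.8 CPM at the lowest through a median of 2.87 to 5.38 at the highest. In the pituitary it ran from 0.441 CPM through a median of 1.04 to 2.13. Of the hypothalamus libraries 1, from an HGR bird at 3 weeks, lay below the highest pituitary library, and within birds the pituitary was lower in 16 of 16. The log2 fold change of IGFBP1 was -1.68 (SE 0.215, edgeR adjusted p = 4.51e-08).

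IGFBP3, the main carrier of IGFs in mammalian blood, where it forms a complex with the acid-labile subunit encoded by IGFALS, differed in the opposite direction. Its level was 6.58 CPM at the lowest, 8.39 at the median and 9.72 at the highest in the hypothalamus. In the pituitary the lowest was 9.84 CPM, the median 14 and the highest 18.2. The tissues did not overlap, although the lowest pituitary library, the shallow one, stood close to the highest hypothalamus library. The pituitary was higher in 16 of 16 birds, with a log2 fold change of 0.77 (SE 0.0625, edgeR adjusted p = 4.33e-12) or 1.70-fold. Without the shallow library the log2 fold change of IGFBP3 was 0.79 (SE 0.0534). Non-overlapping tissues, seen for 2 of 7 members, were found for 31.6% of all genes tested.

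The chromosomal neighbours thus went opposite ways in the chromosome 2 pair and had unequal differences in the chromosome 7 pair. The ratio of IGFBP3 to IGFBP1 counts in the same library was 1.32 to 3.97 (median 2.51) in the hypothalamus and 4.67 to 33.8 (median 14) in the pituitary. The ratio of IGFBP2 to IGFBP5 counts was 10.9 to 24.0 (median 14.1) in the hypothalamus and 1.60 to 7.94 (median 3.82) in the pituitary. These ratios are given as a description, with no test, and gene length divides out of their comparison between tissues.

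**Figure D1:**
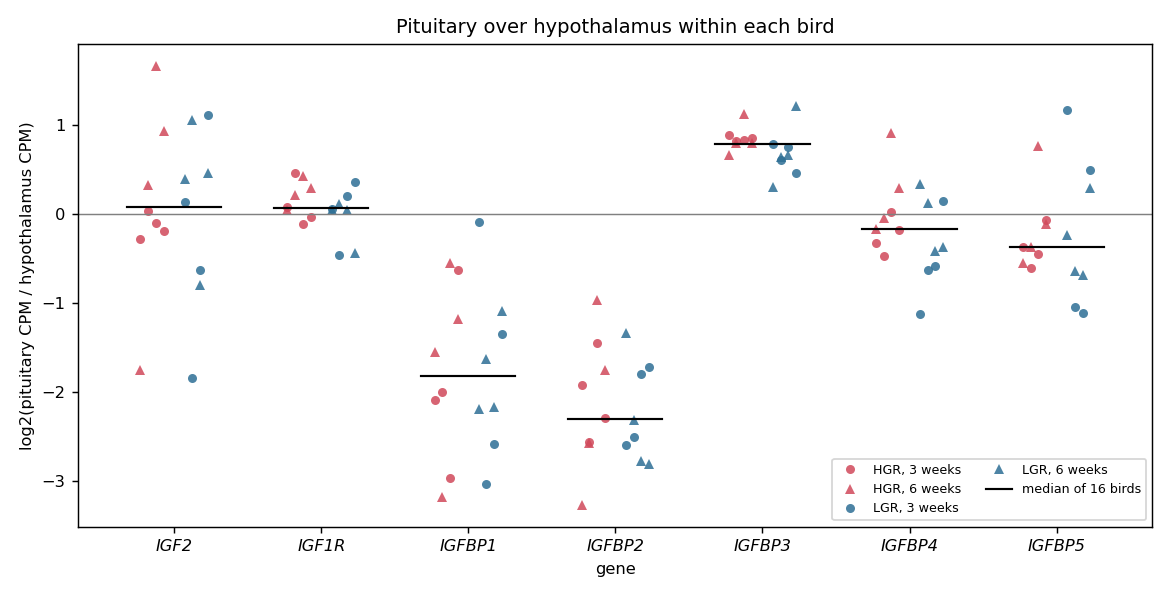
Log2 ratio of pituitary to hypothalamus CPM (y axis) for each IGF system gene (x axis) in each of 16 birds, by growth group (colour) and age (symbol), with the median as a bar. All birds lie below 0 for IGFBP1 and IGFBP2 and above 0 for IGFBP3, and for the other 4 genes birds lie on both sides.

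The remaining members were at overlapping levels in the tissues. IGF2, the IGF ligand measured here, was 0.979 CPM at the lowest, 2.33 at the median and 6.28 at the highest in the hypothalamus and 1.46, 2.54 and 4.04 CPM in the pituitary. The log2 fold change of IGF2 was -0.10 (SE 0.246, edgeR adjusted p = 0.727), and the pituitary was higher in 9 of 16 birds. The sign of this small difference turned with the scaling. Its within-bird log2 ratio ran from -1.84 to 1.67.

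IGF1R, the receptor that carries the IGF signal into the cell, was at 20.7 to 34.0 CPM (median 31.3) in the hypothalamus and at 22.0 to 37.9 CPM (median 30.3) in the pituitary. Its log2 fold change was 0.08 (SE 0.0882, edgeR adjusted p = 0.387). IGFBP4, which in mammals mostly holds IGFs away from the receptor until pappalysins cut it, was at 33.6 to 83.4 CPM (median 49.6) in the hypothalamus and 32.3 to 75.1 CPM (median 43.5) in the pituitary. Its log2 fold change was -0.14 (SE 0.108, edgeR adjusted p = 0.230).

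IGFBP5, which binds extracellular matrix and bone mineral, was at 6.44 to 16.7 CPM (median 10.2) in the hypothalamus and 6.11 to 19.5 CPM (median 7.96) in the pituitary. Its log2 fold change was -0.20 (SE 0.144, edgeR adjusted p = 0.209). Among these 4 genes, the edgeR adjusted p was 0.0634 for IGFBP4 and 0.0855 for IGFBP5 without the shallow library, and neither was called. Over the alternative edgeR, DESeq2 and limma settings adjusted p ran from 0.0300 to 0.570 for IGFBP5. It ran from 0.0411 to 0.764 for IGFBP4 and from 0.0470 to 0.621 for IGF1R. None of them was called at any setting, since the fold stayed under 1.5.

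**Figure D2:**
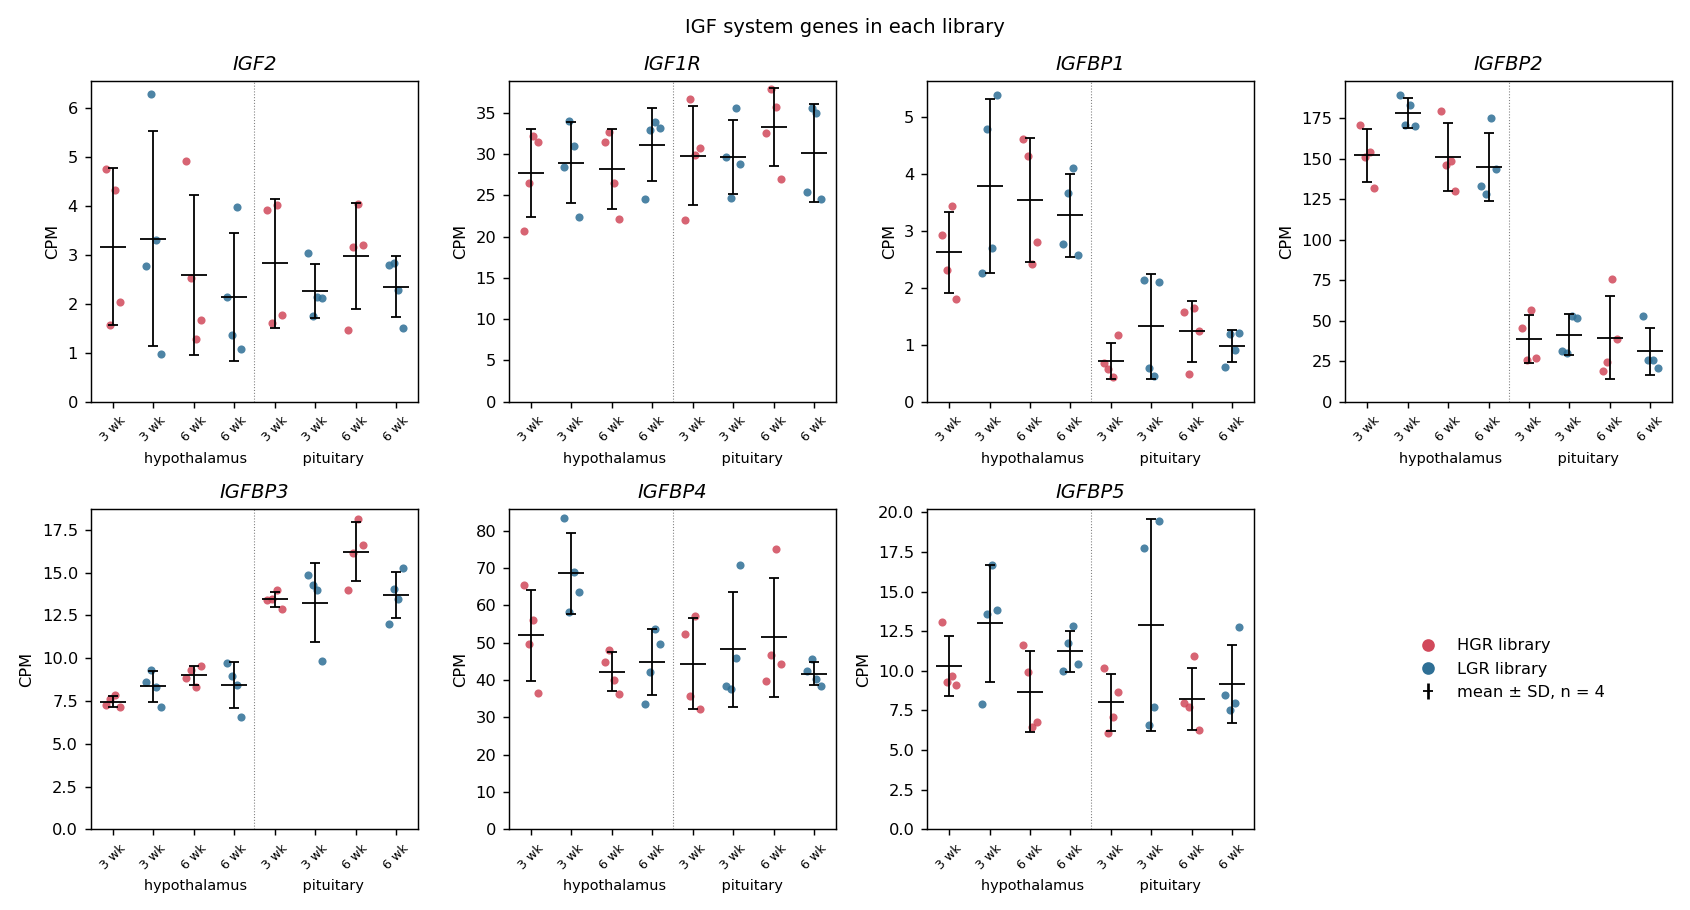
TMM-scaled CPM (y axis, linear from 0) of the 7 IGF system genes in each library, for the HGR and LGR groups at 3 and 6 weeks in the hypothalamus and the pituitary (x axis), with the mean ± SD of 4 birds in black. IGFBP2 is at 128 to 189 CPM in the hypothalamus and at 18.7 to 76.0 CPM in the pituitary, and IGFBP3 at 6.58 to 9.72 CPM and 9.84 to 18.2 CPM.

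The tissue fit above counted both libraries of a bird as separate. It was fitted with the bird as a block too, since libraries of the same bird deviated together. The log2 fold changes were then -2.16 for IGFBP2, -1.69 for IGFBP1 and 0.76 for IGFBP3, and the calls of the 7 members were as before. Over the alternative edgeR, DESeq2 and limma settings, this block among them, adjusted p was at most 2.19e-09 for IGFBP2. It was at most 5.03e-06 for IGFBP1 and 6.32e-09 for IGFBP3. The lists of brain cell markers were lower in the pituitary, as IGFBP2 and IGFBP1 were. The 5 astrocyte genes summed to 1982 to 3375 CPM in the hypothalamus and 30.5 to 121 CPM in the pituitary, and the 5 neuron genes to 3056 to 5312 and 708 to 1058 CPM. The 5 fibroblast and meninges genes summed to 222 to 1732 CPM in the hypothalamus and 591 to 2736 CPM in the pituitary, with 5 of 5 called higher in the pituitary, as IGFBP3 was. Also called higher there were 6 of 6 pituitary hormone cell, 3 of 7 endothelial, 3 of 7 liver plasma protein and 1 of 5 microglia and macrophage genes. In the same lists 0, 2, 3 and 1 genes were called lower. The 3 choroid plexus genes and the 1 oligodendrocyte gene were called lower, and 0 of 4 smooth muscle and pericyte genes were called. Of all genes tested 25.7% were called higher and 27.8% lower. The part of these lists in the tissue differences was not tested.

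Genes that act beside the members were read from a list of 33 IGF pathway genes, 25 of which had a symbol. Between the tissues 5 of 25 were called higher and 4 of 25 lower in the pituitary, beside 25.7% and 27.8% of all genes tested. The median log2 fold change of the list was -0.07.

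The genes of the list with the largest difference towards the pituitary were IGFALS, SHC1 and IGF2BP2. IGFALS, the acid-labile subunit that joins IGFBP3 and IGF in a circulating complex in mammals, was at 4.67 ± 1.93 CPM (SD, n = 16) in the pituitary and 0.260 ± 0.216 CPM (SD, n = 16) in the hypothalamus, with a log2 fold change of 4.24 (SE 0.264, edgeR adjusted p = 1.11e-14). SHC1, an adaptor that links the receptor to the MAP kinase pathway, was higher by 1.56 (SE 0.0509, edgeR adjusted p = 3.50e-21) on the log2 scale. IGF2BP2, an RNA-binding protein named for its binding of IGF2 mRNA, was higher by 1.5 (SE 0.0811, edgeR adjusted p = 4.19e-16). IGFALS and IGFBP3 were thus both higher in the pituitary. IRS2, a docking protein of the insulin and IGF receptors, was higher by 1.08 (SE 0.157), and FOXO1, a transcription factor that the pathway restrains, was higher by 0.62 (SE 0.0617).

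In the opposite direction, HTRA1, a secreted serine protease that can cut IGF binding proteins, was at 192 ± 37.7 CPM (SD, n = 16) in the hypothalamus and 25.8 ± 16.0 CPM (SD, n = 16) in the pituitary. This is a log2 fold change of -2.93 (SE 0.200, edgeR adjusted p = 9.43e-14). GRB14, an adaptor that inhibits the insulin receptor, was lower by a log2 fold change of -1.65 (SE 0.247) and IGF2BP1 by -0.99 (SE 0.137). STC1, a stanniocalcin whose family blocks pappalysins in mammals, had a log2 fold change of -0.79 (SE 0.151). IGF2R, which in the chicken serves as a mannose 6-phosphate receptor and does not bind IGF2, had a log2 fold change of -0.38 (SE 0.0766) and was below the 1.5-fold limit, and INSR, the insulin receptor, was at 0.45 (SE 0.0955).

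Of 13 listed genes of the growth hormone axis, 8 had a symbol, of which 4 were called higher and 2 lower in the pituitary. The shares over all genes tested were 25.7% and 27.8%. GHRHR, the receptor for growth hormone releasing hormone, was at 299 ± 111 CPM (SD, n = 16) in the pituitary and 0.0976 ± 0.0846 CPM (SD, n = 16) in the hypothalamus. SOCS2, an inhibitor of growth hormone signalling, was at 265 ± 69.5 CPM (SD, n = 16) and 15.4 ± 2.71 CPM (SD, n = 16), a log2 fold change of 4.11 (SE 0.110). The somatostatin receptors SSTR5 and SSTR2 were higher by log2 fold changes of 1.13 (SE 0.148) and 1.03 (SE 0.162). SST, encoding somatostatin, was at 298 ± 60.3 CPM (SD, n = 16) in the hypothalamus and 1.42 ± 3.61 CPM (SD, n = 16) in the pituitary, and GHRH was also called lower in the pituitary.

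**Figure D3:**
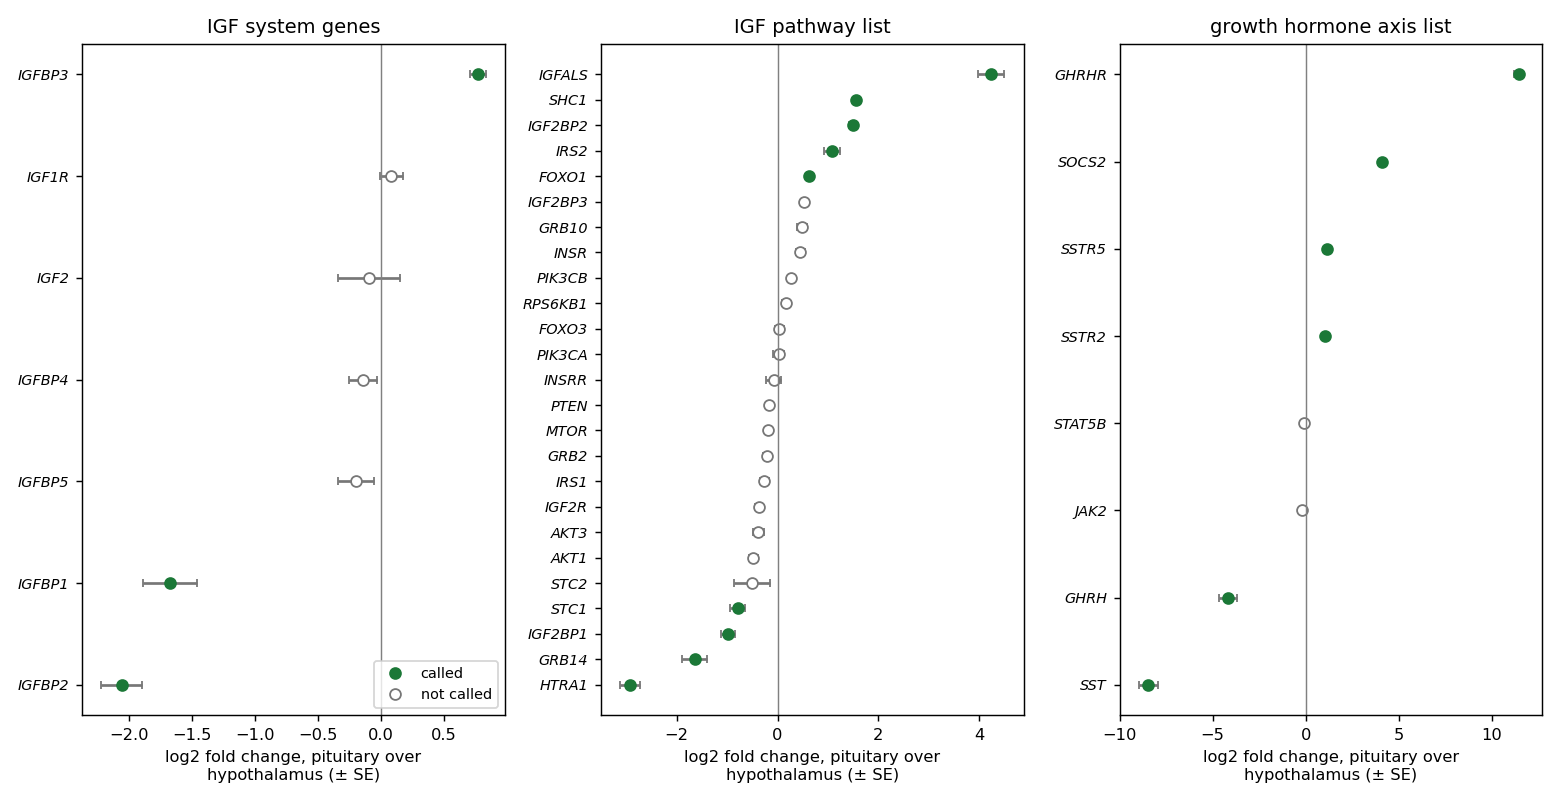
Log2 fold change of pituitary over hypothalamus with its SE (x axis, scaled separately in each panel) for the 7 IGF system genes, 25 IGF pathway genes and 8 growth hormone axis genes (y axis). Filled points were called, which are 3, 9 and 6 genes, beside 53.5% of all genes tested, and open points were not.

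The comparison of LGR with HGR birds asked whether the IGF system followed growth rate. In no tissue and at neither age was an IGF system gene called, and the groups overlapped for the genes with the lowest p. In the hypothalamus at 3 weeks 0 of 7 members were called by edgeR, beside 0% of 14980 genes tested, and 2 of 7 had an unadjusted p under 0.05, beside 5.81% of all genes. The log2 fold changes of the 7 (LGR over HGR) ran from 0.06 for IGF1R to 0.53 for IGFBP1, with edgeR adjusted p of 0.855 to 0.990.

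The genes with an unadjusted p under 0.05 were IGFBP2 and IGFBP4. IGFBP2 was at 171, 151, 154 and 132 CPM in the 4 HGR birds and at 189, 171, 183 and 171 CPM in the 4 LGR birds. The LGR birds were on the high side, with a pair of them (170.9 and 170.5 CPM) a little below the highest HGR bird (171.2 CPM). This made a log2 fold change of 0.23 for IGFBP2 (SE 0.0989, edgeR adjusted p = 0.855), below the 1.5-fold limit.

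IGFBP4 was at 65.4, 49.7, 56.2 and 36.6 CPM in the HGR birds and at 83.4, 58.1, 69.1 and 63.7 CPM in the LGR birds. The ranges overlapped, with 1 HGR bird above a pair of LGR birds. For IGFBP4 the log2 fold change was 0.40 (SE 0.174, edgeR adjusted p = 0.856). The 7 marker genes of hypothalamic nuclei summed to 175 to 238 CPM in these HGR and 219 to 309 CPM in these LGR birds, and the 6 pituitary hormone cell markers to 490 to 1507 and 947 to 2949 CPM. Single nucleus genes went both ways (log2 fold changes -1.01 to 1.22), with 5 of 7 at an unadjusted edgeR p under 0.05. Other lists had median log2 fold changes of 1.82 for liver plasma proteins (3 of 5 at such a p) and 0.62 for fibroblasts and meninges (0 of 5). Smooth muscle and pericytes had 0.52 (2 of 4) and microglia and macrophages 0.39 (2 of 5). The medians were 0.07 for choroid plexus, -0.07 for astrocytes, -0.15 for endothelial cells, -0.19 for neurons and -0.61 for the 1 oligodendrocyte gene. No gene of any list was called by edgeR here, and 5.81% of all genes had an unadjusted p under 0.05. The part of these lists in the growth-group differences of IGFBP2 and IGFBP4 was not tested, and relations within groups are given below.

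In the hypothalamus at 6 weeks 0 of 7 members were called, beside 0.134% of 14944 genes (20 genes), and 0 of 7 had an unadjusted p under 0.05, beside 18.6% of all genes. The log2 fold changes ran from -0.27 for IGF2 to 0.37 for IGFBP5. IGFBP5 was at 11.7, 9.94, 6.44 and 6.76 CPM in the HGR birds and at 9.98, 11.7, 12.8 and 10.4 CPM in the LGR birds. Of the HGR birds 3 lay below all LGR birds, 1 of them narrowly, and the other lay among them, and the log2 fold change had an SE of 0.195 (edgeR adjusted p = 0.339). IGFBP2 and IGFBP4 had log2 fold changes of -0.05 (SE 0.118) and 0.09 (SE 0.144) at this age.

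In the pituitary 0 of 7 members were called at 3 weeks, beside 0% of 14730 genes, and 0 of 7 had an unadjusted p under 0.05, beside 2.62%. IGFBP1 had the highest log2 fold change, 0.80 (SE 0.583, edgeR adjusted p = 0.963), at 0.687, 0.579, 0.441 and 1.17 CPM in the HGR and 2.13, 0.586, 0.453 and 2.11 CPM in the LGR birds. IGFBP5 followed with 0.67 (SE 0.381), at 10.2, 6.11, 7.11 and 8.67 CPM in the HGR and 17.8, 6.58, 7.71 and 19.5 CPM in the LGR birds. In both genes a pair of LGR birds, replicates 1 and 4, lay above all HGR birds and the other pair lay among them. Replicate 4 is the shallow library, and without it the log2 fold changes were 0.58 (SE 0.594) for IGFBP1 and 0.42 (SE 0.348) for IGFBP5, again with 0 of 7 called. The value of IGFBP1 ran from 0.31, without LGR replicate 1, to 1.15, without HGR replicate 4, when each library was left out in turn.

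In the pituitary at 6 weeks 0 of 7 members were called, beside 0% of 14826 genes, and 0 of 7 had an unadjusted p under 0.05, beside 6.77%. The log2 fold changes ran from -0.34 for IGFBP1 to 0.17 for IGFBP5. IGFBP3, with the lowest p of the 7 here, was at 14, 16.1, 18.2 and 16.6 CPM in the HGR birds and at 12, 14, 13.4 and 15.3 CPM in the LGR birds. The groups overlapped, and its log2 fold change was -0.23 (SE 0.114, edgeR adjusted p = 0.758). Over the 4 growth comparisons no member was called by DESeq2, by limma voom or in any of the 64 fits tried.

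In the same 4 growth comparisons 0 genes of the IGF pathway list were called by edgeR, DESeq2 or limma voom. The first and the last of these tools tested 24, 24, 24 and 25 genes of the list and DESeq2 tested 25, 23, 25 and 25, and 4, 4, 0 and 4 had an unadjusted edgeR p under 0.05. Of 7 tested genes of the growth hormone axis list 0 were called by edgeR or limma voom in each, with 1, 4, 1 and 2 at an unadjusted edgeR p under 0.05. Such a p was found for 5.81%, 18.6%, 2.62% and 6.77% of all genes tested. DESeq2 tested 8, 7, 8 and 6 genes of that list and called 1, GHRHR in the 6-week pituitary, with a log2 fold change of -0.73 (DESeq2 adjusted p = 0.0048). The gene was named after its value was seen.

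**Figure D4:**
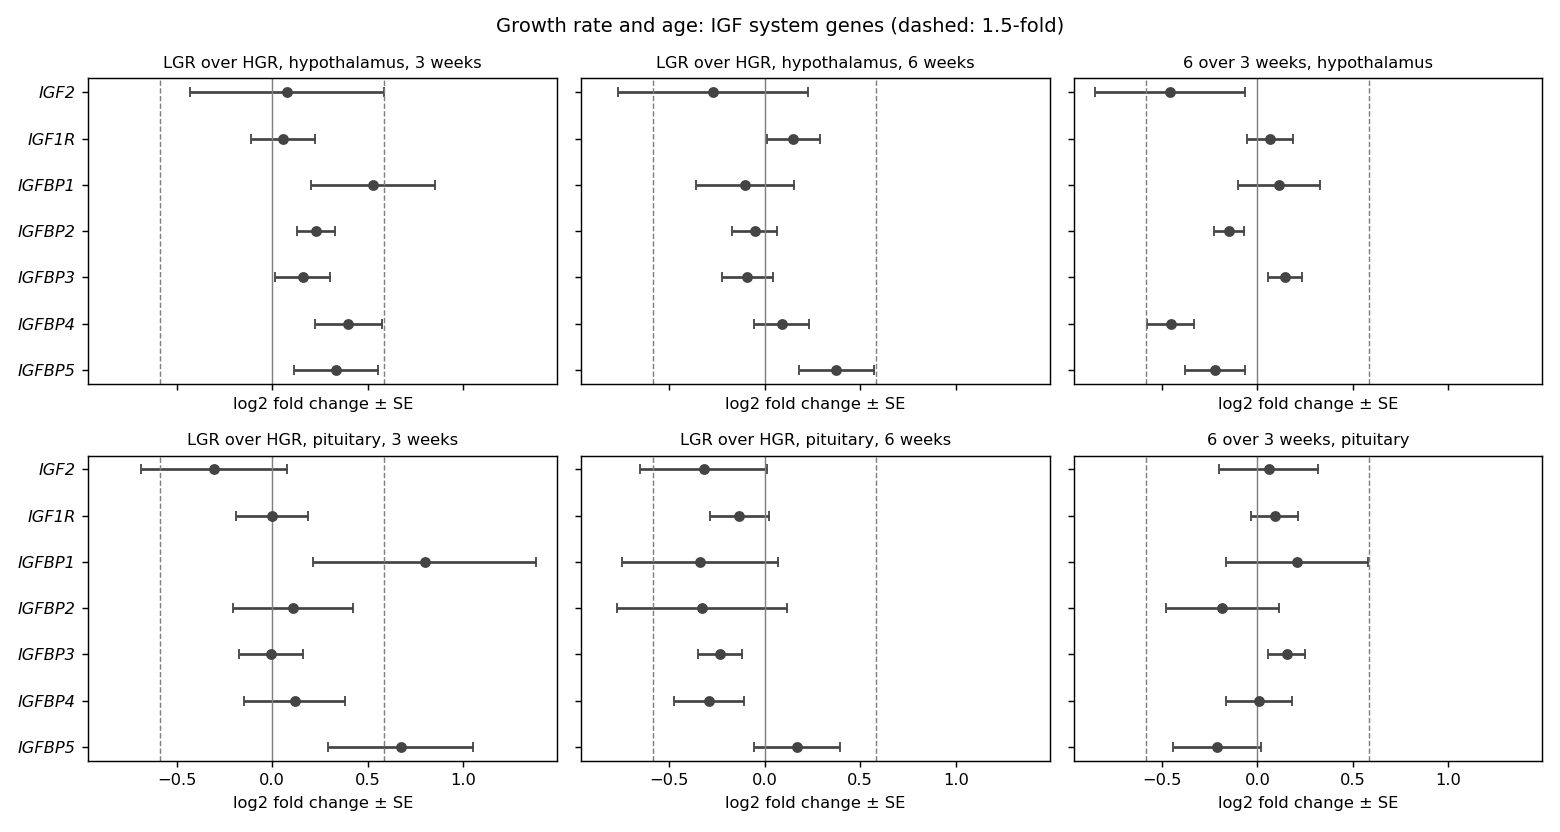
Log2 fold change ± SE (x axis) of the 7 IGF system genes (y axis) between LGR and HGR birds (4 against 4) and between 6-week-old and 3-week-old birds (8 against 8) in each tissue, with dashed lines at 1.5-fold. Points past a dashed line are IGFBP1 (0.80) and IGFBP5 (0.67) in the 3-week pituitary, and neither was called.

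Between 3 and 6 weeks of age 0 of 7 members were called in the hypothalamus by edgeR, beside 0.623% of 15414 genes. IGFBP4 alone had an unadjusted p under 0.05, which 24.2% of all genes had. It was at 36.6 CPM at the lowest, 60.9 at the median and 83.4 at the highest in the 8 birds of 3 weeks and at 33.6, 43.4 and 53.8 CPM in the 8 birds of 6 weeks. The older birds lay in the lower part of the range of the younger ones or just below it.

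The log2 fold change of IGFBP4 (6 over 3 weeks) was -0.45 (SE 0.123, edgeR adjusted p = 0.0585), which is 1.37-fold and below the limit for a call. Over the other settings its adjusted p ran from 0.0104 to 0.0760 and over fits without a single library from 0.0143 to 0.126, with no call at any of them since the fold stayed under 1.5. The other 6 members had log2 fold changes from -0.46 (IGF2, SE 0.392) to 0.14 (IGFBP3, SE 0.0900). Over the same ages the fibroblast and meninges list had a median log2 fold change of -0.90 in the hypothalamus and the pituitary hormone cell list one of -1.09, with 0 of 5 genes of either list called by edgeR and 4 of 5 of each at an unadjusted p under 0.05. DESeq2 called 1 of these genes, COL3A1, and limma voom called COL3A1, CHGA and TSHB. The astrocyte list had a median of 0.35, with 1 of 5 genes called higher at 6 weeks and 4 of 5 at an unadjusted p under 0.05. The hypothalamic nucleus list had a median of -0.38, with 1 of 7 genes called higher, 1 called lower and 4 of 7 at an unadjusted p under 0.05. The smooth muscle and pericyte list had a median of -0.08, with 0 of 4 genes at such a p. The choroid plexus list had 0.66 (1 of 3), with 1 gene called higher at 6 weeks by DESeq2. Liver plasma proteins had -0.999 (1 of 5), neurons 0.18 (2 of 5) and endothelial cells 0.07 (2 of 7). Microglia and macrophages had 0.02 (0 of 5), and the 1 oligodendrocyte gene was at 0.12. The part of these lists in the age differences of IGFBP4 and IGF2 was not tested, and relations within groups are given below.

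In the pituitary 0 of 7 members were called between the ages, beside 0.0262% of 15280 genes, and 0 of 7 had an unadjusted p under 0.05, beside 10.6%. The log2 fold changes ran from -0.21 for IGFBP5 to 0.21 for IGFBP1, and IGFBP4 was at 0.01 (SE 0.171). Without the shallow library these values were -0.10 (SE 0.217) for IGFBP5, 0.31 (SE 0.376) for IGFBP1 and 0.12 (SE 0.149) for IGFBP4, again with 0 of 7 called. Of the IGF pathway list 0 genes were called between the ages in either tissue by edgeR, DESeq2 or limma voom, with 9 of 24 in the hypothalamus and 4 of 25 in the pituitary at an unadjusted edgeR p under 0.05. Such a p was found for 24.2% and 10.6% of all genes tested. Of the growth hormone axis list 0 were called by edgeR or DESeq2, with 1 of 7 and 5 of 8 at an unadjusted edgeR p under 0.05, and limma voom called SSTR2 in the pituitary, at a log2 fold change of -1.01 (limma adjusted p = 0.0494).

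The differences between these differences were tested as interactions. Growth by age had 0 of 7 members called in the hypothalamus, beside 0.00649% of all genes, and 0 of 7 in the pituitary, beside 0%. No member had an unadjusted p under 0.05 in either, and 5.53% and 4.48% of all genes did. Without the shallow library 1 of 7 in the pituitary had one, IGFBP3, at -0.33 (SE 0.139, edgeR adjusted p = 0.806), and 0 were called. Tissue by age had 0 of 7 members called, beside 0.00618%, and 1 of 7, IGFBP4, with an unadjusted p under 0.05, beside 6.07%. Its age difference was higher in the pituitary than in the hypothalamus by 0.47 (SE 0.217, edgeR adjusted p = 0.796) on the log2 scale, and by 0.58 (SE 0.200, edgeR adjusted p = 0.329) without the shallow library.

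The members differed in how far birds of a group stood apart. In the hypothalamus the SD of log2 levels within groups was highest for IGF2, at 0.904, where counting error would give 0.257. It was lowest for IGFBP3, at 0.156 with 0.128 from counting, and was 0.164 for IGFBP2. In the pituitary IGFBP1 had the highest SD, at 0.818 with 0.409 from counting, followed by IGFBP2 at 0.642, and IGFBP3 the lowest, at 0.176 with 0.107 from counting. Of the 7 genes IGFBP3 lay nearest to counting error in both tissues, whereas IGFBP2 varied more between birds in the pituitary than in the hypothalamus on this scale, a difference that was not tested.

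The deviation of each member from its group mean was related to indices of 11 marker lists over the 16 birds of a tissue, as 154 relations with permutations within groups. For IGF2 in the hypothalamus the deviations followed the fibroblast and meninges index, made of COL1A2, COL3A1, DCN, LUM and OGN, which encode collagens and matrix proteoglycans. Pearson's r was 0.934 (permutation p = 7e-05, adjusted p = 0.00539) and Spearman's rho 0.903 (permutation p = 0.0001, adjusted p = 0.0077). Without the 2 birds with the most extreme deviation of the index r was 0.926, and within the ages it was 0.946 at 3 weeks and 0.951 at 6 weeks.

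The IGF2 deviations also followed the index of smooth muscle and pericytes, with r = 0.891 (permutation p = 5e-05, adjusted p = 0.00539) and rho = 0.891 (permutation p = 6e-05, adjusted p = 0.0077). Without the 2 extreme birds r was 0.845, and it was 0.877 at 3 weeks and 0.914 at 6 weeks. No other of the 77 relations in the hypothalamus and none of the 77 in the pituitary passed an adjusted p of 0.05. In the pituitary r of IGF2 with the fibroblast and meninges index was 0.708 (permutation p = 0.00877, adjusted p = 0.114), with rho = 0.724 (permutation p = 0.00513, adjusted p = 0.113). How much dissected tissue of either kind each sample held was not measured. Other pituitary relations that did not pass had a lower permutation p. IGFBP4 had r = -0.847 with the neuron index (permutation p = 0.00471, adjusted p = 0.109). IGFBP2 had r = 0.760 with the astrocyte index (permutation p = 0.00573, adjusted p = 0.110) and 0.698 with the hypothalamic nucleus index (permutation p = 0.00497, adjusted p = 0.109). IGF2 had r = 0.646 with the astrocyte index (permutation p = 0.00862, adjusted p = 0.114). Among the hypothalamus relations that did not pass, the hypothalamic nucleus index had r = 0.752 with IGFBP4 (permutation p = 0.00182, adjusted p = 0.0789). Its r with IGFBP2 was 0.663 (permutation p = 0.00343, adjusted p = 0.106). The pituitary hormone cell index there had r = 0.721 with IGFBP1 (permutation p = 0.00205, adjusted p = 0.0789) and 0.670 with IGFBP5 (permutation p = 0.00685, adjusted p = 0.114). This index had r = 0.697 with IGFBP2 (permutation p = 0.0176, adjusted p = 0.169) and 0.516 with IGFBP4 (permutation p = 0.0739, adjusted p = 0.335). The fibroblast and meninges index had r = 0.714 with IGFBP2 (permutation p = 0.0102, adjusted p = 0.121). For the neuron index r was -0.642 with IGFBP3 (permutation p = 0.0125, adjusted p = 0.137).

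Among the 42 relations between members, 1 passed an adjusted p of 0.05 by Pearson's r, that of IGFBP2 with IGFBP4 in the pituitary. In the pituitary r was 0.780 (permutation p = 0.00114, adjusted p = 0.0479) and rho 0.782 (permutation p = 0.00148, adjusted p = 0.0311). In the hypothalamus r of the same pair was 0.759 (permutation p = 0.0024, adjusted p = 0.0504), which did not pass. Its rho was 0.797 (permutation p = 0.0012, adjusted p = 0.0311). Without the 2 birds of the most extreme IGFBP2 deviation r was 0.782 in the pituitary and 0.826 in the hypothalamus. Within the ages it was 0.881 and 0.787 in the pituitary and 0.967 and 0.676 in the hypothalamus, at 3 and 6 weeks. These genes lie on chromosomes 7 and 27.

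Deviations of the same gene in the 2 tissues of a bird were compared as 7 relations. None passed an adjusted p of 0.05, and the highest r was 0.474, for IGF1R (permutation p = 0.104, adjusted p = 0.730), with rho = 0.303 (permutation p = 0.318, adjusted p = 0.720). It was 0.335 without the 2 extreme birds, and 0.345 at 3 weeks and 0.632 at 6 weeks.

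**Figure D5:**
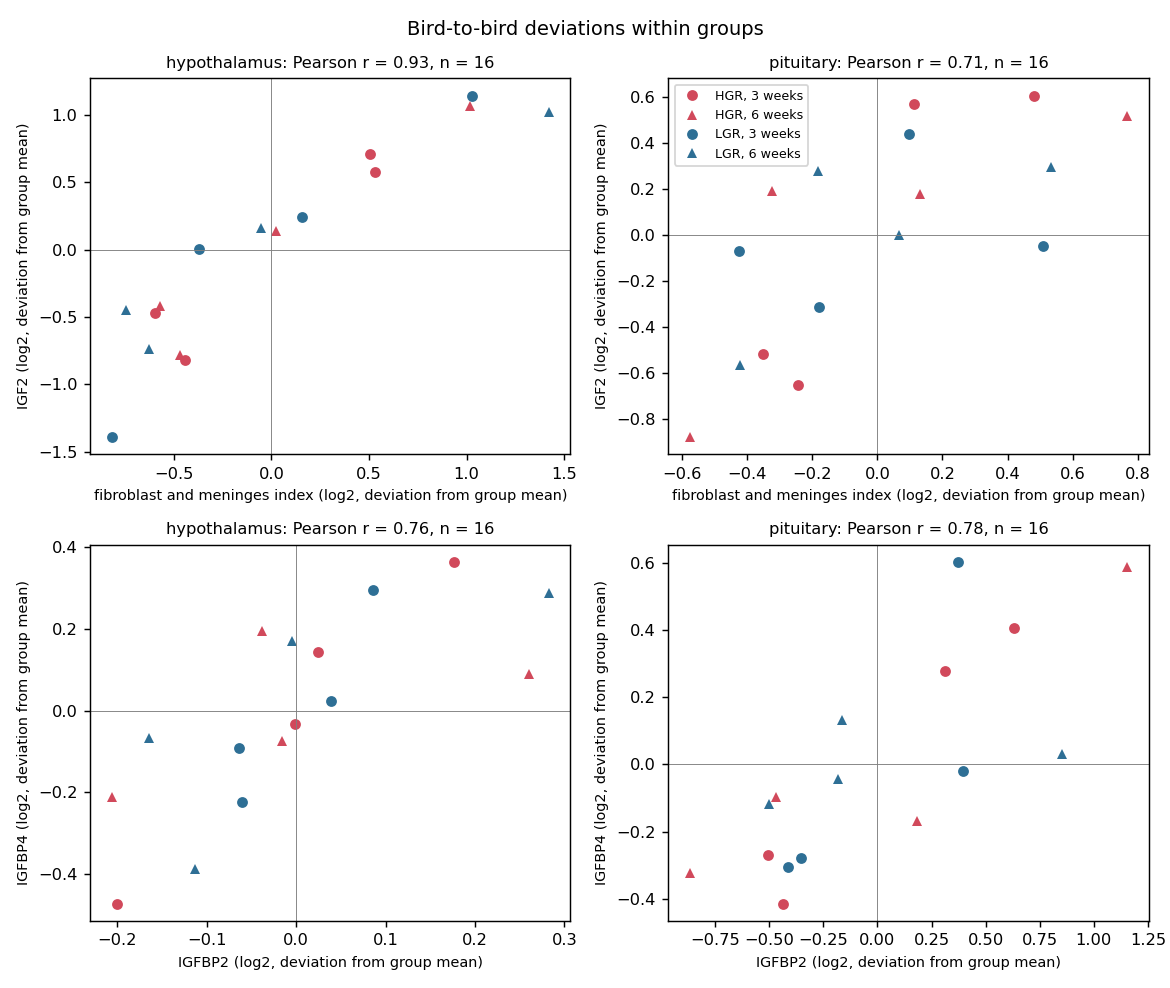
Deviations of log2 CPM from the group mean in 16 birds, for IGF2 against the fibroblast and meninges index (top) and IGFBP4 against IGFBP2 (bottom), in the hypothalamus (left) and the pituitary (right), by growth group and age. Pearson's r is 0.93 and 0.71 in the top panels and 0.76 and 0.78 in the bottom panels.

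The genes whose levels were most like each member were read as a description, by Pearson's r of log2 CPM over the 16 libraries of the tissue in which the member was at the higher mean, among 10124 genes. For IGF2 in the hypothalamus they were TMEM37 (0.95), SLC26A1 (0.94) and PI15 (0.94), and for IGFBP4 HPGD (0.95), ALDH1A1 (0.91) and C2orf66 (0.90). For IGFBP2 they were CRYM (0.88), OTOR (0.87) and CLEC3B (0.87), and for IGFBP5 ZFPM1 (0.86), PDE11A (0.83) and WWP2 (0.82). For IGFBP1 they were PELO (0.77), LMOD1 (0.76) and ASAH1 (0.74). For IGFBP3 in the pituitary they were NXPE3 (0.90), FAIM (0.89) and RNF168 (0.89), and for IGF1R SERINC5 (0.88), ITPR1 (0.77) and SYNPO2 (0.74). The 16 libraries behind each value come from a single tissue and from both ages and both growth groups. Group means were not removed, so differences between the groups enter these r values, and no p is given.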

How the data were processed

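Libraries were made with a kit that does not mark strand, and reads that overlap genes on opposite strands cannot be told apart. The labels' processing notes name CASAVA 1.8.2, FastQC, Bowtie2, RSEM and DESeq2, and the deposited values are unnormalized counts of whole reads for each Ensembl gene. Symbols and coordinates were taken from the authors' result tables, whose other columns hold means, fold changes and p-values of their own comparisons and were not used. The members and gene lists were chosen with earlier results of these data known.

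Counts were tested with edgeR 4.0.16 under R 4.3.3 with the data.table package (1.17.8) (filterByExpr with a minimum count of 10 and total of 15, TMM scaling, quasi-likelihood test, Benjamini-Hochberg adjustment over all genes tested). Growth groups were compared over 8 libraries, ages and growth by age over the 16 libraries of a tissue, and tissues over 32. SEs were derived from the log2 fold change and the F value. Named were all members, and called pathway genes with the 3 largest changes each way, and further called ones; IGF2R, INSR, and the list genes GHRHR, COL3A1, CHGA, TSHB and SSTR2, called by another tool, were added after their values were seen. Log2 CPM for indices, most alike genes and deviations had a prior count of 2, and relations were tested with 100000 permutations in Python 3.11.15, numpy 2.4.6, pandas 2.3.3 and scipy 1.17.1, with figures by matplotlib 3.10.9.

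Same-group libraries differed by more than counting noise (chi-square per gene of at least 8.14 over 48 pairs). Within a tissue the p-values measure the spread between these birds. The main tissue fit has no bird term, so both libraries of a bird count there as separate. Libraries of the same bird, paired by a number shared in the sample descriptions, deviated together (r = 0.109 to 0.480, median 0.234, over 16 pairs, 13 best with their own). Alternatives were DESeq2 1.42.0, its size factors, upper-quartile scaling, no scaling factor, no filter, limma 3.58.1 (voomWithQualityWeights), the adjusted p alone, a single fit per tissue, a replicate block and leaving out each library. The tests were also run on simulated counts, drawn without pairing by bird and with changes larger than the growth and age differences of the members. Nothing is concluded from them here.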

Additional observations from a re-analysis of the deposited data

Results flagged for a closer look

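Of 56 sets of 4 libraries (7 genes in 8 groups), 3 held a library far from the others by Dixon's test, which chance gives in about 1 of 20 sets. IGF1R in the 6-week LGR hypothalamus was at 24.6 CPM in replicate 1 and at 32.9 to 33.9 CPM in the others. IGFBP2 in the 6-week LGR pituitary was at 52.6 CPM in replicate 1 and at 20.5 to 25.9 CPM in the others. IGFBP5 in the 3-week HGR hypothalamus was at 13.1 CPM in replicate 1 and at 9.11 to 9.70 CPM in the others.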

How the results depend on the processing

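The count of IGF system genes called, 3 between the tissues and 0 in each of the other 9 comparisons, was unchanged under every setting and without any single library. Counts over all genes moved with the tool. In the order hypothalamus at 3 and 6 weeks and pituitary at 3 and 6 weeks, LGR against HGR gave 0, 20, 0 and 0 calls by edgeR and 21, 165, 6 and 51 by DESeq2. Voom gave 3 and 1 in the pituitary and 0 in the 3-week hypothalamus. In the 6-week hypothalamus voom called 1 gene higher and 13 lower in LGR birds. DESeq2 called 232 (hypothalamus) and 165 (pituitary) genes between the ages, where edgeR called 96 and 4 and voom 219 and 107. For growth by age DESeq2 called 21 (hypothalamus) and 22 (pituitary) genes and voom 7 in the hypothalamus, and for tissue by age they called 37 and 27, against 1 by edgeR. The adjusted p alone gave 85 genes for growth in the hypothalamus at 6 weeks, 356 between the ages there and 12992 between the tissues. Without the low-count filter 63 genes were called between the ages and 2 for growth by age in the hypothalamus. Tissue by age gave 5 genes with DESeq2 size factors, 5 with upper-quartile scaling and 4 with no scaling factor. A single fit over a tissue gave 4 growth calls at 3 weeks and 0 at 6 weeks in the hypothalamus.

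With the replicate block, which is the bird in the tissue fits and a number that is shared by different birds in the others, the 6-week hypothalamus had 3 growth calls, growth by age in the hypothalamus 0, age in the pituitary 1 and tissue by age 2. It changed no call of a member. Libraries of LGR and HGR birds with the same number did not deviate together (r = -0.19 to 0.16), and not every library was best related to its own number.

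Without each library in turn, growth calls ran from 0 to 1, 0 to 24, 0 to 1 and 0 to 1 in the order above, age calls from 27 to 354 in the hypothalamus and 0 to 26 in the pituitary, growth by age from 0 to 8 and 0 to 2, the tissues from 8672 to 8780 and tissue by age from 0 to 20. Of 70 member differences (7 genes in 10 comparisons), 26 turned direction without some library, with 0 of the 26 called. They include IGF1R from -0.058 to 0.16 (growth, hypothalamus, 3 weeks), IGF2 from -0.76 to 0.25 (growth, hypothalamus, 6 weeks), IGFBP5 from -0.033 to 0.34 (growth, pituitary, 6 weeks), IGF1R from -0.025 to 0.20 (growth by age, hypothalamus), IGF2 from -0.24 to 0.18 (growth by age, pituitary), IGF2 from -0.17 to 0.023 (tissues) and IGFBP2 from -0.30 to 0.10 (tissue by age). Upper-quartile scaling, which moved the median of all genes between the tissues from 0.05 to 0.16, turned IGF2 to 0.011 between the tissues and to 0.011 for growth by age in the pituitary. Voom turned IGF2 to 0.050 between the tissues and IGFBP2 to 0.023 for tissue by age, and no scaling factor turned the latter to 0.067. The cause was not tested. IGF2 and IGFBP1, at 9 to 105 and 7 to 80 counts per library, were the members most limited by depth.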
